A study of Bos taurus with 90 samples.

Results

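INPP1 encodes inositol polyphosphate 1-phosphatase. It was followed as 1 of the 24616 genes counted in 90 liver libraries of steers, either Charolais (CH) or Holstein-Friesian (HF), that were divergent for residual feed intake (RFI). The gene was found by its name in the supplementary gene list of the study, which pairs it with the identifier ENSBTAG00000007584. It stands in that list because it was selected on 1 contrast, low against high RFI in HF steers offered zero-grazed grass (ZG). The values of that contrast are therefore given as a description with no test, and tests are given for the comparisons that did not select the gene. Some of the diet and breed tests still include the HF ZG libraries, as stated where they are given.

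INPP1 is a magnesium-dependent, lithium-sensitive phosphatase that removes the phosphate at the 1 position from inositol bisphosphates and trisphosphates. These are metabolites of inositol trisphosphate, the messenger that phospholipase C releases from the membrane and that opens calcium channels of the endoplasmic reticulum. IMPA1, an inositol monophosphatase of the same enzyme superfamily, takes off the last phosphate, and the free inositol can enter phosphatidylinositol again. In liver the pathway carries the signals of hormones such as vasopressin and of adrenergic agonists. In the RefSeq gene table of the bovine assembly ARS-UCD2.0, INPP1 lies between MFSD6 and NEMP2 on one side and HIBCH and C2H2orf88 on the other. That assembly is not the UMD3.1 build of the counts, so no position is printed, and the neighbours were not matched to an identifier.

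Residual feed intake is the feed a steer eats beyond that predicted from its weight and growth, so low RFI is the more efficient state. Steers were ranked within breed and phase. All were commercial-herd steers given 3 phases in the same order, high-concentrate 1 (H1, growing), ZG (growing) and high-concentrate 2 (H2, finishing). H1 and H2 used the same diet with 860 g/kg rolled barley and a restricted allowance of grass silage. Grass silage was fed between H1 and ZG, and steers grazed between ZG and H2. Steers were older in each later phase, so diet and age cannot be told apart. The paper gives HF steers a higher mean age than CH steers at the start of H1, so breed and age are confounded too. For CH, H1 had 9 low RFI and 11 high RFI libraries, ZG had 3 of each kind, and H2 had 9 low RFI and 8 high RFI. For HF, the low and high RFI numbers were 7 and 9 in H1, 10 and 8 in ZG, and 5 and 8 in H2.

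Library totals ranged from 9097695 to 63621304 counts, with a median of 18858293. The libraries carry 73 steer numbers, and 14 steers gave libraries in more than 1 phase within a breed. Steer 1797 is labelled CH under H1 and HF under H2. FGG, the fibrinogen gamma chain that hepatocytes secrete, was measured at 5697 to 38880 CPM (counts scaled to a common library size) in every library. It was chosen for this check after its values were seen. None of 43 marker genes of liver and other cell types could be matched to an identifier, so cell composition was not examined. In whole biopsies, fewer cells of a type and less RNA per cell cannot be told apart.

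INPP1 was detected in every library, with 136 to 1483 counts. On the CPM scale, normalized by the trimmed mean of M-values (TMM), INPP1 ranged from 14.1 to 47.1 with a median of 23.8, a 3.33-fold range. Both ends of that range were HF steers. The 8 highest libraries, from 36.5 CPM upwards, were all HF and came from 7 steers. Of the 10 lowest libraries, at 14.1 to 17.8 CPM, 6 were HF and 4 were CH. Both sets include HF ZG libraries, on which the gene was chosen, and the lowest value is from HF ZG high RFI. The within-group SD of log2 CPM was 0.27 in CH and 0.34 in HF, against medians over 13945 genes of 0.37 and 0.40. INPP1 thus varied less between steers of a group than the median gene in both breeds. The genes were not matched in level, and the mean CPM of INPP1 exceeded that of 73.2% of them. The HF value also includes the HF ZG groups, on which the gene was chosen. By group, the SD in HF ran from 0.20 in ZG high RFI to 0.49 in H1 low RFI.

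**Figure D1:**
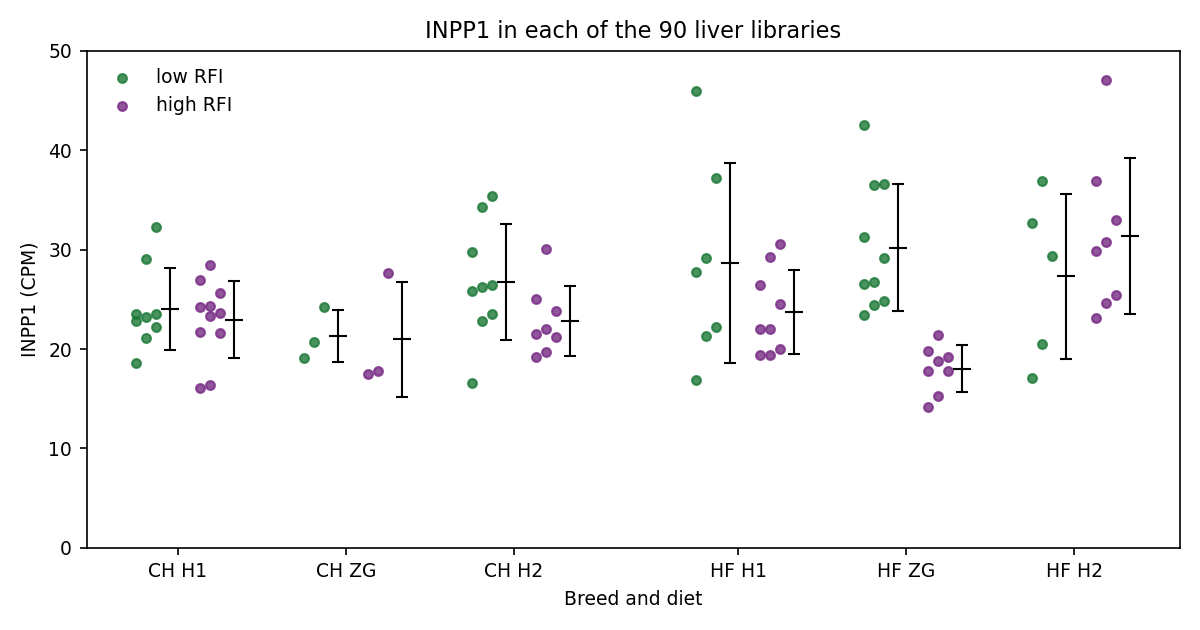
INPP1 in CPM on the vertical axis for each of the 90 libraries, by breed and diet, with low RFI in green and high RFI in purple and the group mean ± SD in black. The low and high RFI points are apart in HF under ZG, the contrast on which the gene was chosen, and overlap in the other 5 combinations.

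The 12 group means formed a narrow ladder. The highest was HF H2 high RFI at 31.4 ± 7.85 CPM (SD, n = 8). It was followed by HF ZG low RFI at 30.2 ± 6.40 (n = 10), HF H1 low RFI at 28.6 ± 10.1 (n = 7) and HF H2 low RFI at 27.3 ± 8.30 (n = 5). The CH groups and HF H1 high RFI lay between 26.8 and 21.0 CPM. HF ZG high RFI was the lowest at 18.0 ± 2.37 CPM (n = 8). Each step between neighbours in this order was 0.038 to 0.52 of the larger SD of the pair. Since the groups were sorted by their means, small steps follow from the order, and nothing is read from them about groups farther apart.

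In HF under ZG, the contrast that selected the gene, the 8 high RFI steers had 14.1, 15.2, 17.7, 17.8, 18.8, 19.2, 19.8 and 21.4 CPM. The 10 low RFI steers ranged from 23.4 through a median of 27.9 to 42.5 CPM. The lowest of the 10 low RFI values exceeded the highest of the 8 high RFI values, and the gap between the groups, from 21.4 to 23.4 CPM, was small beside the spread of the low RFI steers. The log2 fold change of low over high RFI was 0.73 (SE 0.14), a 1.66-fold difference. The share of the 12492 genes tested in which every low RFI steer was above every high RFI steer was 0.00801%, which is 1 gene, INPP1 itself. No gene of these 12492 separated the groups the other way. edgeR called 0% of the 12492 genes in this comparison at an adjusted p under 0.1, 261 had an unadjusted p under 0.05, and DESeq2 called 2. Nothing is read from these shares, since the rule used this contrast.

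The libraries of the HF ZG groups overlapped in depth, with totals of 12063648 to 31866821 for low RFI and 11696079 to 63621304 for high RFI. TMM factors were 0.791 to 0.983 in the low and 0.786 to 1.09 in the high RFI steers. The part of these in the result was not tested. INPP1 rested on 230 to 1060 counts in the low and 177 to 1305 in the high RFI steers. The deepest library was a high RFI steer, number 1639, with 1305 INPP1 counts and 18.8 CPM.

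The other 5 breed and diet combinations ask whether the RFI difference recurs in samples that did not select the gene. The mean was higher in low RFI steers in 4 of these 5, but none of the differences passed the test. Under H1 in CH, high RFI steers ranged from 16.1 through a median of 23.6 to 28.5 CPM, and low RFI steers from 18.6 through 23.2 to 32.3. Under H2 in CH, high RFI steers ranged from 19.2 through 21.7 to 30.02 CPM and low RFI steers from 16.6 through 26.3 to 35.4. The lowest steer of that comparison was in the low RFI group, and 2 of the 9 low RFI values exceeded the whole high RFI range. Under ZG in CH, the 3 high RFI steers had 17.5, 17.8 and 27.6 CPM and the 3 low RFI steers 19.1, 20.7 and 24.2, so that the low RFI values lay inside the range of the high RFI values.

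In HF under H1, high RFI steers ranged from 19.4 through a median of 22.0 to 30.6 CPM, and low RFI steers from 16.9 through 27.7 to 45.9. The low RFI steers held both the lowest and the highest value. In HF under H2, the 5 low RFI steers had 17.1, 20.5, 29.3, 32.7 and 36.9 CPM, and the high RFI steers ranged from 23.1 through 30.4 to 47.1. Here the high RFI mean was the higher one, and the low RFI value of 20.5 CPM belongs to steer 1797.

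The log2 fold changes of low over high RFI were 0.075 (SE 0.11) in CH H1, 0.040 (SE 0.22) in CH ZG and 0.24 (SE 0.14) in CH H2. They were 0.27 (SE 0.17) in HF H1 and -0.20 (SE 0.20) in HF H2. The adjusted p-values of edgeR's quasi-likelihood test were 0.819, 0.926, 0.998, 0.793 and 1.00 in that order. The two-sided exact permutation tests of the mean CPM gave p = 0.560, 1.0, 0.116, 0.224 and 0.393, and the smallest value after adjustment over the 5 was 0.560. With 3 steers against 3, that test cannot go below 0.1. The direction in CH ZG turned to between -0.085 and -0.081 when any 1 of steers 1816, 437 (high RFI) and 1831 (low RFI) was left out. In HF H2, leaving out 1 low RFI steer gave -0.32 (without steer 5612) to -0.064 (without steer 2071), and -0.105 without steer 1797. In CH H1 the value without steer 1797 was 0.090.

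Few genes were called in these comparisons at all. edgeR called 0.0155% of 12920 genes in CH H1. It called 0% of 13025 in CH ZG, 0% of 12417 in CH H2, 0% of 13025 in HF H1 and 0% of 12549 in HF H2. Genes with an unadjusted p under 0.05 numbered 1755, 355, 863 and 435 in the last 4, and DESeq2 called 160, 4, 24 and 5. DESeq2 called 160 in CH H1.

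One RFI effect fitted over the 72 libraries outside HF ZG was 0.11 on the log2 scale (SE 0.075, 95% interval -0.038 to 0.26). That is a fold of 1.08, with an interval from 0.974 to 1.20, and an adjusted p of 0.786 from edgeR. The fit called 0.0287% of 13927 genes. Of the steers with an HF ZG library, 5 also gave another HF library. Without them the effect was 0.091. Without steer 1797 it was 0.14. The difference between HF ZG and the other combinations was not tested, because the gene was chosen on HF ZG.

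**Figure D2:**
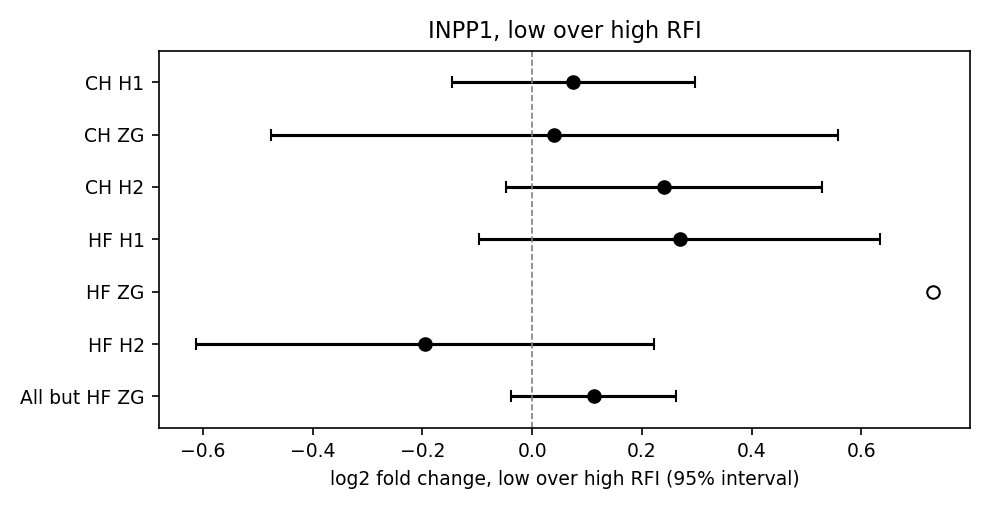
log2 fold change of INPP1, low over high RFI, on the horizontal axis for each breed and diet and for all libraries but HF ZG, with 95% intervals from edgeR. HF ZG, the contrast that chose the gene, is an open circle at 0.73 without an interval, and each of the other 6 intervals includes 0.

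Differences between RFI effects were tested where HF ZG took no part. The largest were HF H1 minus HF H2 at 0.47 (SE 0.28, 95% interval -0.10 to 1.03) and CH H2 minus HF H2 at 0.43 (SE 0.24, -0.059 to 0.93). Without steer 1797 they were 0.37 and 0.35. The others were CH H1 minus CH ZG at 0.047, CH H1 minus CH H2 at -0.16, CH ZG minus CH H2 at -0.21 and CH H1 minus HF H1 at -0.19. INPP1 was called in none of these 6 by edgeR, with unadjusted p-values of 0.0824 and more. The same fits called 11.6% of 13734 genes for CH H1 minus CH ZG and 0.00754% of 13270 for HF H1 minus HF H2. They called 0% for the remaining 4, in which 996, 453, 1271 and 287 genes had an unadjusted p under 0.05, and DESeq2 called 1, 0, 30 and 2.

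INPP1 was called in no comparison of phases, termed diet comparisons here. H2 over H1 sets finishing against growing steers on the same diet. In CH, the mean was 23.4 ± 3.95 CPM under H1 (SD, n = 20), 21.1 ± 4.01 under ZG (n = 6) and 24.9 ± 5.15 under H2 (n = 17). In HF it was 25.9 ± 7.50 under H1 (n = 16), 24.8 ± 7.93 under ZG (n = 18) and 29.8 ± 7.95 under H2 (n = 13). ZG had the lowest and H2 the highest mean in both breeds, and the ranges of the 3 phases overlapped. That order did not hold in each RFI group. In HF low RFI steers ZG was the highest, at 30.2 CPM against 28.6 under H1 and 27.3 under H2. In HF high RFI steers the means were 23.7 under H1, 18.0 under ZG and 31.4 under H2. The HF ZG means by RFI group are those of the contrast that selected the gene. In CH high RFI steers H2 (22.8) lay just below H1 (23.0).

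For ZG over H1, the log2 fold change was -0.16 (SE 0.12, adjusted p = 0.388 by edgeR) in CH and -0.11 (SE 0.13, adjusted p = 0.479) in HF. For H2 over H1 it was 0.075 (SE 0.087, adjusted p = 0.463) in CH and 0.24 (SE 0.14, adjusted p = 0.140) in HF. For H2 over ZG it was 0.23 (SE 0.13, adjusted p = 0.302) in CH and 0.36 (SE 0.14, adjusted p = 0.167) in HF, where the unadjusted p was 0.0147. None of the 6 was called. By the same rule edgeR called 21.3%, 4.98% and 67.2% of 13732 genes for ZG over H1, H2 over ZG and H2 over H1 in CH. In HF it called 57.7%, 5.05% and 61.4% of 13472 genes. The HF fit includes the HF ZG libraries, whose RFI contrast selected INPP1, and a common RFI effect over the phases. The HF tests of INPP1 are therefore not free of that selection.

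In HF, the calls for H2 over H1 and for H2 over ZG turned on single libraries of the H2 low RFI group. Without steer 1797, H2 over H1 in HF was 0.30 with an adjusted p of 0.0736, and without steer 2071 it was 0.31 with an adjusted p of 0.0476. Without steer 2071, H2 over ZG was 0.44 with an adjusted p of 0.0721, and without steer 1797 it was 0.42 with an adjusted p of 0.107. ZG over H1 in HF was called under none of the alternatives, with adjusted p-values of 0.196 to 0.634. Those steers had the lowest INPP1 values of the HF H2 libraries, 20.5 and 17.1 CPM. Over all alternatives the adjusted p ran from 0.0476 to 0.386 for H2 over H1 and from 0.0721 to 0.258 for H2 over ZG. The fits without steer 2071 were added after the values had been seen, and those without steer 1797 were planned.

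Between breeds, INPP1 was on average higher in HF under each diet, with a log2 fold change of HF over CH of 0.15 (SE 0.10) under H1, 0.15 (SE 0.15) under ZG and 0.27 (SE 0.12) under H2. The adjusted p-values from edgeR were 0.546, 1.00 and 0.659, so no breed difference passed the test. Under ZG, leaving out 1 CH steer gave 0.026 (without steer 788) to 0.29 (without steer 307), with adjusted p-values of 0.947 and 1.00. Under H2 the value was 0.32 without steer 1797. The unadjusted p under H2 was 0.0387, with a fold of 1.20 and an interval from 1.01 to 1.44. In these fits the called share of genes was 4.22% (of 13454) for H1, 0% (of 13406) for ZG and 0.633% (of 12959) for H2. Under ZG, 395 genes had an unadjusted p under 0.05 and DESeq2 called 14. The diet effects did not differ between breeds by the test, with HF minus CH differences of 0.052 (95% interval -0.33 to 0.43) for ZG over H1, 0.12 (-0.28 to 0.51) for H2 over ZG and 0.17 (-0.16 to 0.50) for H2 over H1. edgeR called 0% of 13945 genes in each of these 3 tests. An unadjusted p under 0.05 was found for 441, 812 and 299 genes, and DESeq2 called 1, 3 and 0. The breed test under ZG and the 3 HF minus CH tests include the HF ZG libraries, whose RFI contrast selected the gene.

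**Figure D3:**
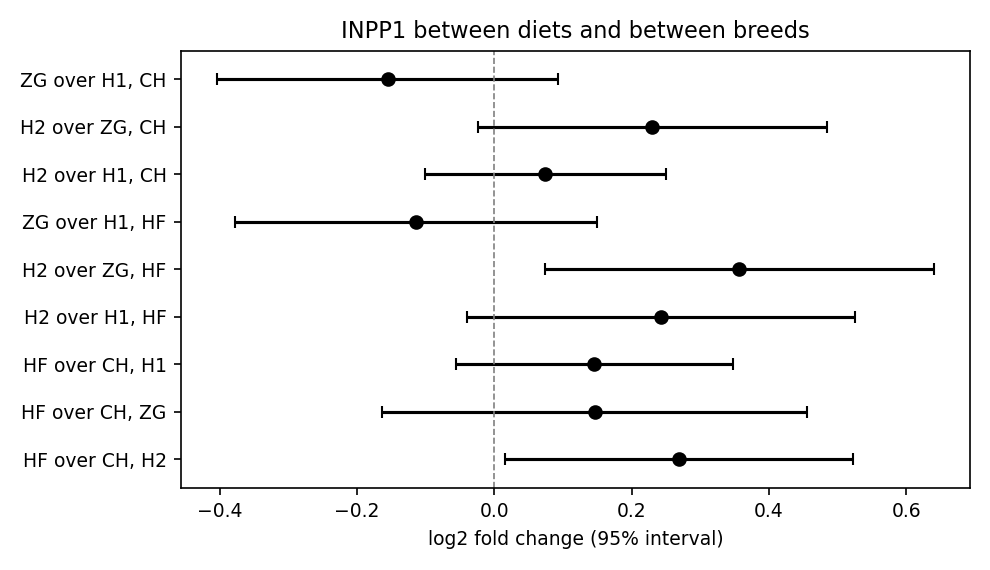
log2 fold change of INPP1 between diets within each breed and between breeds within each diet on the horizontal axis, with 95% intervals from edgeR. H2 over ZG in HF at 0.36 and HF over CH under H2 at 0.27 have intervals above 0 before adjustment, and no comparison was called after it. The HF diet fit and the breed fit under ZG include the HF ZG libraries, on which the gene was chosen.

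The 14 steers sampled in more than 1 phase within a breed allowed the level of INPP1 to be compared within an animal. Between the first and the last library of a steer, the higher value exceeded the lower by a median of 1.27-fold, with a range from 1.03-fold in steer 1831 to 1.61-fold in steer 2101. Several steers changed RFI group between phases. Steer 2071 had 19.4 CPM as a high RFI steer under H1 and 17.1 CPM as a low RFI steer under H2. Steer 5632 had 29.1 CPM under H1 and 42.5 CPM under ZG, both as a low RFI steer, and 36.9 CPM as a high RFI steer under H2.

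Steer 2065 had 30.6 CPM as a high RFI steer under H1, above each of the 8 high RFI steers under ZG, and 23.4 CPM as a low RFI steer under ZG, where it was the lowest of the low RFI group. Steer 2101 was high RFI in both of its phases, and its 47.1 CPM under H2 was the highest value of the series. Of the 8 steers in the same RFI group in both libraries, 8 had more INPP1 in the later one, and of the 6 that changed RFI group 1 did. This count was made after the values were seen and was not tested. Steers 1100, 1816 and 5632 went from low to high RFI and steers 307, 2065 and 2071 from high to low, and only 5632 rose. Steers 1639, 2065, 2069 and 5612 enter the count with an HF ZG library, on which the gene was chosen.

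Whether a steer above its group in one phase was above its group in the next depended on how the group was defined. With log2 CPM taken as a deviation from the mean of the breed, diet and RFI group, Pearson's r over the 14 steers was 0.18 (permutation p = 0.534) and Spearman's rho 0.077 (permutation p = 0.796). Without the 2 steers farthest from the median, r was 0.40 (permutation p = 0.198). The median r of 13945 genes was 0.10, and 38.9% of them had a larger r than INPP1. With deviations from the mean of breed and diet alone, r was 0.68 and rho 0.76. That second measure keeps the RFI difference within HF ZG, on which the gene was chosen. Steers 1639, 2065, 2069 and 5612 enter it with an HF ZG library. Its values are therefore a description with no test. Within the 6 CH steers and the 8 HF steers, the first measure gave r of 0.28 and 0.087. These comparisons were added after the values had been seen.

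**Figure D4:**
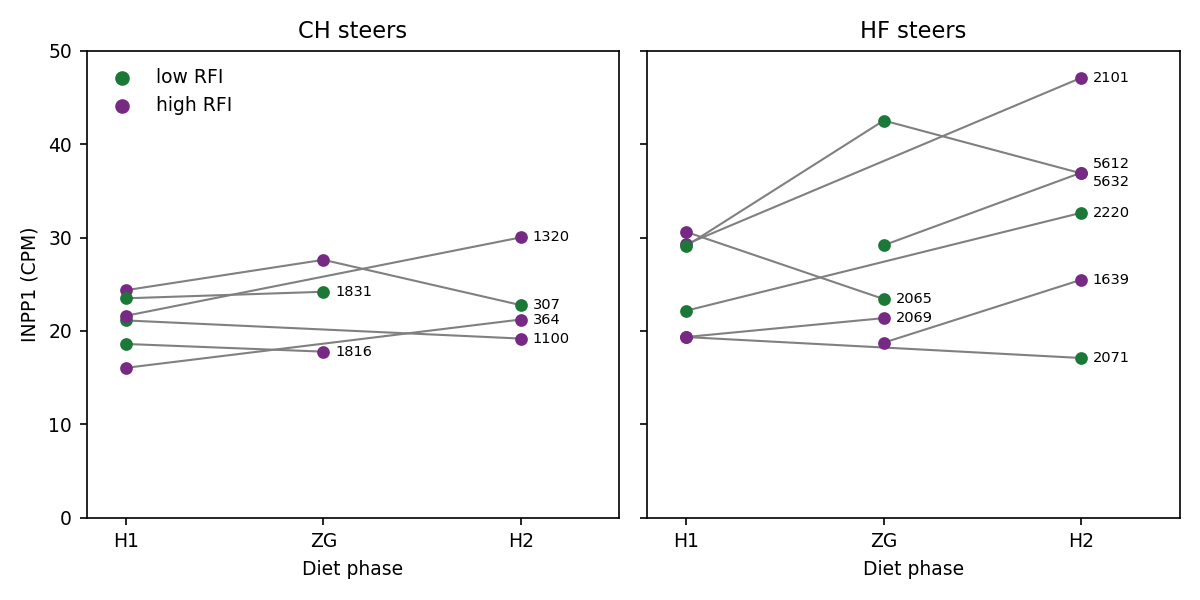
INPP1 in CPM on the vertical axis for the steers sampled in more than 1 phase within a breed, CH on the left and HF on the right, with phases on the horizontal axis, lines joining libraries of a steer and colours giving its RFI group in that phase. Steer 5632 stayed at 29.1 CPM or above in 3 phases, and steers 2069 and 2071 stayed at 21.4 CPM or below.

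Of 67 genes of inositol phosphate metabolism listed by function, 4 could be matched to an identifier. These were INPP1, IMPA1 and FBP2 of the lithium-sensitive phosphatase superfamily, and NUDT3, a hydrolase of diphosphoinositol polyphosphates. No kinase, receptor, phospholipase C or inositol synthesis gene was matched, so the pathway as a whole was not examined. The matched genes have names because each was called in an RFI contrast of the study, IMPA1 in CH ZG, FBP2 in HF H2 and NUDT3 in CH H1. They are not an independent sample of the pathway, and no test is given for them in those contrasts.

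NUDT3 was called higher by both edgeR and DESeq2 under ZG and under H2 than under H1, in each breed. In HF it had 39.0 ± 2.40 CPM under H1 (SD, n = 16), 49.8 ± 6.98 under ZG (n = 18) and 49.1 ± 3.33 under H2 (n = 13). In CH it had 37.8 ± 3.89 (n = 20), 46.1 ± 3.43 (n = 6) and 47.2 ± 4.09 CPM (n = 17). Levels under H1 were the lowest in both breeds. The CH H1 libraries are those that named NUDT3, with 34.7 ± 2.60 CPM in low and 40.4 ± 2.68 CPM in high RFI steers. Both CH comparisons with H1 therefore use values that selected the gene, and those of HF do not. In HF the highest H1 library had 44.8 CPM and the lowest H2 library 44.7. NUDT3 rose from H1 to ZG by 0.37 (SE 0.062, adjusted p = 1.5e-05) in HF and 0.29 (SE 0.068, adjusted p = 0.0072) in CH on the log2 scale by edgeR. From H1 to H2 it rose by 0.33 in each breed (adjusted p = 0.00020 in HF and 6.2e-07 in CH). In HF and CH alike, H2 over ZG was not called, at -0.038 and 0.037. These comparisons each belong to fits in which up to 67.2% of genes were called.

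IMPA1, which acts after INPP1, had 33.7 ± 3.11 CPM under H1, 37.1 ± 6.49 under ZG and 36.3 ± 4.69 under H2 in HF. ZG over H1 in HF was 0.15 (SE 0.077), called by edgeR at an adjusted p of 0.0922 and not by DESeq2 at 0.141. In CH the ZG over H1 value was 0.26 (SE 0.11, adjusted p = 0.0976 by edgeR and 0.126 by DESeq2). It combines 28.9 ± 1.89 CPM in the 3 high RFI steers with 47.3 ± 7.71 CPM in the 3 low RFI steers whose difference had named the gene. In HF ZG, where INPP1 separated the RFI groups, IMPA1 had 37.1 ± 7.28 CPM in low RFI and 37.2 ± 5.84 CPM in high RFI steers. Its log2 fold change there was -0.020 (SE 0.14).

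FBP2, the muscle form of fructose bisphosphatase, a gluconeogenic enzyme whose fold is shared with the inositol phosphatases, was low and variable. Its libraries ran from 0.0846 to 18.4 CPM, and it was called in none of the 6 diet and 3 breed comparisons by edgeR. The HF diet comparisons and the breed comparison under H2 include the HF H2 libraries, whose RFI difference had named FBP2. Over the diet comparisons, 2 of the 3 genes other than INPP1 were called higher for ZG over H1 in each breed, 1 for H2 over H1 in each breed, none for H2 over ZG, and none was called lower. The shares of all genes called, in both directions, were 21.3% in CH and 57.7% in HF for ZG over H1. For H2 over H1 they were 67.2% and 61.4%. With 3 genes, each selected on an RFI contrast, nothing is read from the counts beside these shares. DESeq2 called 1, 1 and 0 in the same order in each breed.

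**Figure D5:**
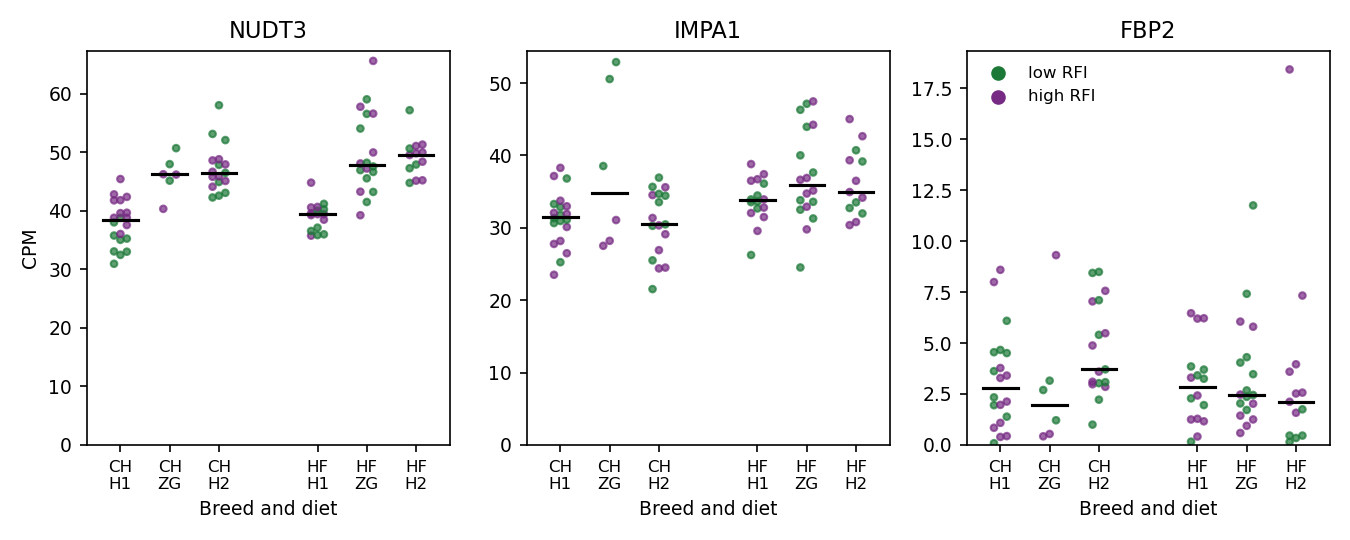
NUDT3, IMPA1 and FBP2 in CPM on the vertical axes by breed and diet, with each library as a point (green low RFI, purple high RFI) and the median as a black line. NUDT3 is lowest under H1 in both breeds, IMPA1 in CH ZG is spread from 27.5 to 52.9 CPM, and FBP2 reaches 18.4 CPM in 1 HF H2 library.

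The genes whose log2 CPM followed INPP1 most closely over the 90 libraries were sought among 13944 others by Spearman's coefficient, as a description. The libraries share steers, phases and depth, and the genes are not independent. The coefficients were moderate, and only 3 genes had one beyond 0.5 in size. The highest were ENSBTAG00000046017 at 0.51 and ENSBTAG00000004222 at 0.49, with Pearson's r of 0.51 and 0.47. The lowest were ENSBTAG00000008656 at -0.55 and ENSBTAG00000021922 at -0.50, with r of -0.53 and -0.49. After the 12 group means had been subtracted the first pair had 0.48 and 0.48 and the second -0.43 and -0.44. Without the 2 libraries farthest from the median of INPP1, r was 0.50, 0.45, -0.51 and -0.47 in that order. None of the 5 highest and 3 lowest is paired with a name in the sources used here.

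Among 327 named genes the highest coefficients were those of WHAMM, an activator of actin nucleation at membranes (0.41), EIF4B, a translation initiation factor (0.34), and DOCK8, an exchange factor of leukocytes (0.32). The lowest were those of SIK1, a salt-inducible kinase (-0.34), HSPA1A, a heat shock chaperone (-0.33), and NOCT, a protein under circadian control (-0.30). After the group means were subtracted, the coefficients shrank to 0.17 for WHAMM, -0.17 for SIK1 and -0.18 for NOCT. DOCK8 then had 0.28, while EIF4B kept 0.33 and HSPA1A -0.33. These named genes were themselves selected on RFI contrasts. INPP1's own coefficients with its enzyme neighbours were small, at 0.044 for IMPA1, 0.074 for NUDT3 and 0.16 for FBP2.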

How the data were processed

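The authors trimmed 50 bp single-end stranded reads, aligned them to UMD3.1 with STAR and deposited raw counts per Ensembl 87 gene for 90 libraries. The submitters' processing notes give STAR 2.5.3a, FastQC 0.11.5 and CASAVA 1.8. The strand setting of the counting is not given in the sources used here. Libraries were grouped by breed, phase and RFI as labelled, which made 12 groups. The steers are separate animals within a group.

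Fits used edgeR 4.0.16 in R 4.3.3 on the counts of the groups compared, with TMM, filterByExpr, robust quasi-likelihood tests and Benjamini-Hochberg adjustment over all genes, called at an adjusted p under 0.1. Diet and breed fits carried RFI group as an additive term, with a common RFI effect over the diets or breeds fitted. Only the alternative with all groups in one fit averaged the low and high RFI groups. Standard errors are the log2 fold change divided by the square root of F, in size. CPM were computed over all 90 libraries, and log2 CPM with a prior count of 2. Permutation tests were exact for RFI and used 100000 resamples for steers. Alternatives were DESeq2 1.42.0, its size factors in edgeR, other filters, limma-voom 3.58.1, the steer as a block, all groups in one fit and steers left out. The pairing comes from steer numbers in the titles. The correlation of libraries of a steer in the block fits was 0.54 over all genes and 0.24 for INPP1 in CH, and 0.050 and 0.36 in HF.

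INPP1 was followed in every comparison, with the matched members of the inositol lists and the genes most and least like it. The gene and the lists were chosen with earlier results of these data known. Names came from 328 identifiers of the study's gene list. No sequence was printed. In simulated counts where 200 genes were shifted by 1 on the log2 scale, the share that edgeR recovered was 90.5%, 0% and 77.5% for RFI in CH H1, ZG and H2, and 82.5%, 58.5% and 70.5% in HF, of 12920, 13025, 12417, 13025, 12492 and 12549 genes. It recovered 81% and 90.5% for ZG over H1 in CH and HF, and 91.5%, 61.5% and 89.5% for breed under H1, ZG and H2. No 2 libraries held identical counts. The authors' own fold changes and p-values were not used.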

Additional observations from a re-analysis of the deposited data

How the results depend on the processing

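The 24 tested fold changes of INPP1, all but that of HF ZG, gave 214 alternative values. Of these 206 kept direction and side of the threshold, 4 turned direction and 4 passed the threshold. For H2 over H1 in CH the direction turned with at least 10 counts in every library, at -0.0092. For low over high RFI in CH ZG, leaving out 1 steer gave -0.085 to 0.27. In HF, H2 over ZG was called when the 12 groups shared a fit (0.33, edgeR adjusted p of 0.0791) and without steer 2071, and leaving out H2 low RFI steers gave 0.35 to 0.44. In the fit shared by the 12 groups, H2 over H1 in HF was smaller, at 0.17 (edgeR adjusted p of 0.217). H2 over H1 in HF was called without steer 1797 (0.30) or 2071, with a range of 0.23 to 0.31. The cause was not tested. In HF ZG the description stayed at 0.66 to 0.78 without any 1 steer. In limma-voom with a replicate block for steer, H2 over ZG in HF was 0.31 (adjusted p = 0.258). The RFI effect outside HF ZG was 0.072, and the block changed no call. The block used the correlation over all genes, in HF 0.050 against 0.36 for INPP1 itself. It therefore cannot show what the pairing of steers does to INPP1 in HF. The correlation between libraries of a steer was 0.18 with deviations from the 12 group means and -0.025 by that measure without steer 2101. With deviations from breed and diet means it was 0.68, given as a description because that measure keeps the HF ZG contrast. Counts of called genes by edgeR and DESeq2 differed over 1.5 times for RFI in CH H1 (2 and 160), CH ZG (0 and 160), CH H2 (0 and 4), HF H1 (0 and 24), HF ZG (0 and 2) and HF H2 (0 and 5), for H2 over ZG in CH (684 and 1301) and HF (681 and 1026), and for breed under ZG (0 and 14) and H2 (82 and 157). INPP1 had 136 or more counts in every library, so depth did not limit its detection.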
